A study of Mus musculus with 2 samples.

Results

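AW112010 is a mouse gene for a long noncoding RNA, and its level was followed here through every cell class of 2 single-cell libraries of EMT6 tumors. It was found by its symbol and identifier, ENSMUSG00000075010, as 1 of the 55450 genes of the count matrices. The gene was chosen by its measured UMI levels, since earlier results of these data had shown it higher in tumor cells of the Combo library, so its levels in the classes, and its correlation with interferon and MHC genes in tumor-like cells, are given as descriptions. EMT6 is a mouse triple-negative breast cancer line, and 200000 cells were injected into each BALB/c mouse to grow subcutaneous tumors. In the Olaparib + LLY-283 group, mice were given the PARP inhibitor Olaparib (50 mg/kg) together with the PRMT5 inhibitor LLY-283 (50 mg/kg, in cycles of 3 treated and 4 untreated days). Mice of the Combo group were given both drugs and, once in 3 days, 200 µg of anti-PD-1, an antibody that blocks an inhibitory receptor of T cells. Both groups carry the 2 inhibitors, and untreated tumors were not analysed here. Each group is 1 library from 3 pooled mice, so the 2 libraries differ in anti-PD-1 and in everything else that separates 2 pools, and these cannot be told apart.

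AW112010 is known as a transcript that immune cells make after interferon or bacterial stimulation. In macrophages its RNA has been described as translated from a noncanonical reading frame and tied to Il12b, a cytokine subunit, and in T cells it has been tied to Il10, a cytokine that restrains inflammation. The interferon-gamma GTPases, used below as a reading of the interferon state of a cell, are the guanylate-binding proteins (Gbp) and immunity-related GTPases that cells make after interferon-gamma, and MHC class I and class II molecules present peptides to CD8 and CD4 T cells.

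In GENCODE M21, an annotation of GRCm38 (mm10), the gene is a lincRNA on the minus strand of chromosome 19, at chr19:11047612-11055808, between Gm28347 and Ms4a8a, and it overlaps 0 other annotated genes. Both of its annotated transcripts have 3 exons and share the middle exon, at chr19:11048279-11048392. AW112010-201 has 770 exon bases and starts at position 11050566, and AW112010-202 has 625 and starts at 11055808. The region from 250 bases before to 50 bases after the RefSeq start, which is that of AW112010-201, is shown first because AW112010 is compared below with interferon-induced genes. The promoters of Gbp2b and Gbp2, the 2 genes whose UMIs followed it most closely in tumor-like cells, are shown beside it. All are from RefSeq (GRCm38.p6), in the direction of the gene, and capitals mark the motifs found.

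AW112010, chr19:11050517-11050816, minus strand: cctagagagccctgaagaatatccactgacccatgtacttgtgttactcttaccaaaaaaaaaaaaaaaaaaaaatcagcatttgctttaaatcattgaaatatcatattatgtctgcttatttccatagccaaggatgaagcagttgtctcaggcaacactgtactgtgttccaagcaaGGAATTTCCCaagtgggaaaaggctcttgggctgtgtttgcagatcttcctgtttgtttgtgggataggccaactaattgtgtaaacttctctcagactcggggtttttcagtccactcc
Gbp2b, chr3:142594597-142594896, plus strand: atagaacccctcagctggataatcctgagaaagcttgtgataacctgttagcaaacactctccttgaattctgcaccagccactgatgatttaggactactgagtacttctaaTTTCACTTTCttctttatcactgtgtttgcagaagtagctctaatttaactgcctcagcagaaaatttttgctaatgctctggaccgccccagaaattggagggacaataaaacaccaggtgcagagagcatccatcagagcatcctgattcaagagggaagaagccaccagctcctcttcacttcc
Gbp2, chr3:142620413-142620712, plus strand: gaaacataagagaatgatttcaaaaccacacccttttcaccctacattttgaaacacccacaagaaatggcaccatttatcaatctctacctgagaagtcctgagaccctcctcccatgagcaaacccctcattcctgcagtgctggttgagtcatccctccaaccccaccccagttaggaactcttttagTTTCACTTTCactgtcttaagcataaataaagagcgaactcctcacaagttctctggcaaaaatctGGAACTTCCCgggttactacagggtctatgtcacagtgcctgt

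Both strands were searched for 3 motifs: the gamma-activated site TTCNNNGAA, and the core of the interferon-stimulated response element and the NF-kappaB consensus, both given by name. The AW112010 promoter held 1 match, GGAATTTCCC, to the NF-kappaB consensus on the minus strand, from 70 to 61 bases before the start. The Gbp2b promoter held TTTCACTTTC, a match to the response element core, 137 bases before the start. The Gbp2 promoter held the same 10 letters 59 bases before the start, and a match to the NF-kappaB consensus, GGAACTTCCC, just after it. Other genes that followed AW112010 closely were searched too. The windows of C130026I21Rik, Slpi, Itm2b, Igfbp4, Psmb10 and S100a6 held none of the 3 motifs, and that of Psmb8 held a gamma-activated site, TTCCCAGAA. Of 32851 mouse promoters of the same 300 bases, 8.46% held the NF-kappaB consensus, 8.30% the gamma-activated site and 3.44% the response element core. The last 2 sets of letters were not in the AW112010 window, which says nothing of sites elsewhere.

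In Olaparib + LLY-283, 2063 of the 147214934 UMIs of 16115 cells were AW112010, or 14.01 counts per 1000000 UMIs (CPM). In Combo, 9049 of the 162522700 UMIs of 7542 cells were, or 55.7 CPM. A UMI marks 1 captured poly(A) RNA molecule. After filtering for genes, mitochondrial UMIs and doublets, 13974 and 5672 cells were classed by UMIs of marker genes, and 39 barcodes occurred in both libraries. The Combo library lost 1586 cells to the 20% mitochondrial limit and the other library 86. Tumor-like cells, the class with keratin markers, were far deeper in Combo, with a median of 47367 UMIs against 9100, so levels are given as CPM or after each cell was thinned to the same number of UMIs. In tumor-like cells 3 of 5 markers, among them Krt8 and Krt18, were over 2-fold above all other cells, in NK-like cells 6 of 8, and in the other classes named below all markers. All intervals are 95% and cover counting error only, and no test between the groups is possible with 1 library each.

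AW112010 was most abundant in lymphocytes, lower in myeloid cells that present antigen, and far lower in neutrophil-like, fibroblast-like and osteoclast-like cells and in the tumor-like cells of Olaparib + LLY-283. NK-like cells stood highest, with 4730 CPM [3680–5986] in 13 cells of Olaparib + LLY-283 and 1617 CPM [1483–1761] in 22 cells of Combo. T-like cells followed with 848 [681–1044] and 611 CPM [529–701], in 47 and 31 cells. Thinning to 1000 UMIs per cell leaves out cells with fewer UMIs. Of the NK-like cells left, 94.3% [63.1–100] of 8 and 81.6% [58.1–94.6] of 21 carried an AW112010 UMI. Of the T-like cells left, 68.0% [43.0–85.4] of 21 and 60.1% [42.2–78.15] of 31 did. The 13 NK-like cells of Olaparib + LLY-283 held more NK marker RNA (6513 CPM over 8 markers) than the 22 of Combo (1696 CPM), so the 2 sets of cells were not alike beyond AW112010 either.

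Dendritic (DC)-like cells held 316 CPM [268–369] in Olaparib + LLY-283 and 294 CPM [269–320] in Combo. Macrophage-like cells held 165 [145–187] and 168 CPM [156–182], and monocyte-like cells 212 [158–280] and 138 CPM [123–153]. In Olaparib + LLY-283 the interval of the monocyte-like cells overlapped those of both neighbors in this order, and in Combo the 3 intervals were apart. Neutrophil-like cells, the most numerous leukocytes with 628 and 1274 cells, held only 16.3 [7.05–32.2] and 17.3 CPM [12.6–23.3]. Fibroblast (CAF)-like cells held 9.42 [4.70–16.8] and 12.1 CPM [7.47–18.5], and osteoclast-like cells 9.73 [2.01–28.4] and 7.67 CPM [1.58–22.4]. The intervals of these 3 classes overlapped in each library. Endothelial-like cells held 111 CPM [72.3–162] in Olaparib + LLY-283, an interval that overlapped those of macrophage-like and monocyte-like cells, and 25 of these 26 UMIs came from 5 cells. In Combo they held 16.5 CPM [2.00–59.7]. Myogenic-like cells had 0 AW112010 UMIs of 176717 in Olaparib + LLY-283, with an upper limit of 20.9 CPM, and 3 UMIs would be 17.0 CPM. In Combo they held 26.0 CPM [10.5–53.6]. No cell was classed as B-like.

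**Figure D1:**
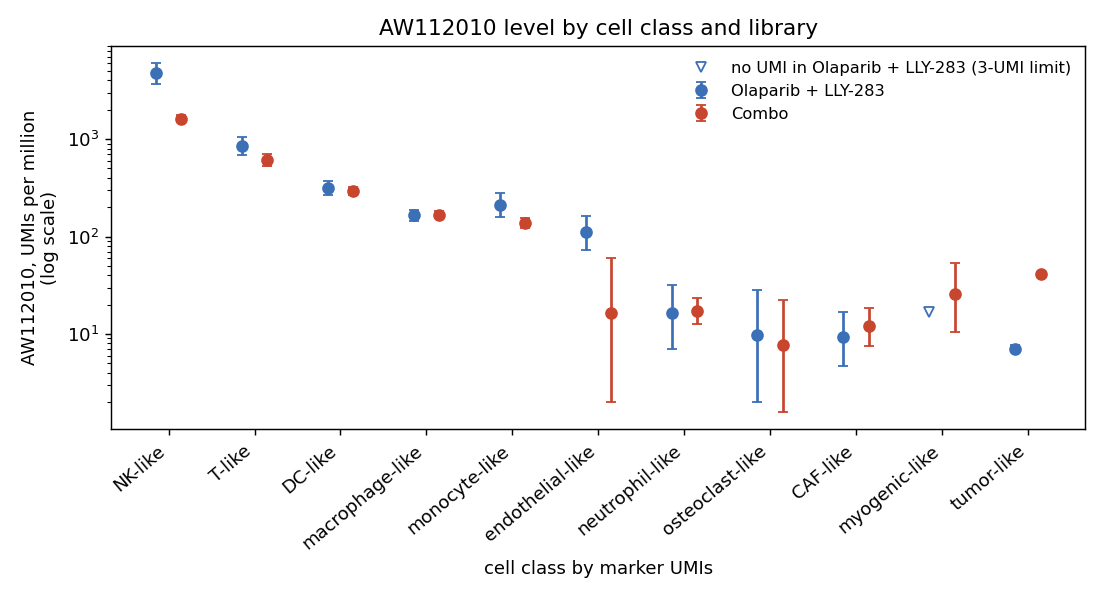
AW112010 in CPM (vertical axis, log scale) in 11 cell classes for each library, as the sum over the cells of a class with 95% Poisson intervals for counting error. The open triangle marks the 3-UMI limit of a class with 0 UMIs. NK-like and T-like cells lie highest in both libraries, and tumor-like cells are at 7.06 in Olaparib + LLY-283 and 40.8 in Combo.

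Tumor-like cells, and the unclassed cells that passed no marker threshold, were the large groups in which the libraries differed several-fold. Tumor-like cells held 627 AW112010 UMIs in 8131 cells of Olaparib + LLY-283, or 7.06 CPM [6.52–7.63], and 4321 UMIs in 2177 cells of Combo, or 40.8 CPM [39.6–42.0]. The ratio of Combo over Olaparib + LLY-283 was 5.78 [5.32–6.30], a log2 ratio of 2.53. After thinning to 1000 UMIs, 0.743% of cells [0.566–0.953] carried a UMI in Olaparib + LLY-283 and 3.70% [2.95–4.61] in Combo. Without thinning the shares were 6.32% and 46.6%. In Olaparib + LLY-283 the thinned share was below that of CAF-like cells, 1.20% [0.239–3.33], and neutrophil-like cells, 2.82% [0.400–11.3], with overlapping intervals. That neutrophil-like share rests on the 61 of 628 cells with at least 1000 UMIs. The part of free RNA in these shares was not tested. In Combo the share of tumor-like cells was above that of neutrophil-like cells, 1.65% [0.973–2.51]. It was inside the wide interval of CAF-like cells, 1.07% [0.0372–7.92], whose level was 12.1 CPM against 40.8. Tumor-like cells with 10000 to 30000 UMIs, a range both libraries hold, gave 6.56 and 34.1 CPM, a log2 ratio of 2.38. Unclassed cells held 11.03 [9.77–12.4] and 46.9 CPM [44.4–49.4], a ratio of 4.25 [3.73–4.85].

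Among 9225 genes with at least 1000 UMIs in tumor-like cells, 25 (0.271%) were at least 2-fold higher in Combo and 11 (0.119%) at least 2-fold lower. AW112010 had the second highest ratio, after Il24, a cytokine of the IL-10 family, which went from 3.58 to 28.5 CPM. Etv1, a transcription factor, went from 3.30 to 17.6 CPM and Hgf, a growth factor, from 1.94 to 7.84 CPM. The median of all 9225 genes was 0.05 on the log2 scale, and Il24, Etv1 and Hgf were named after their values were seen. In DC-like and macrophage-like cells AW112010 lay at rank 2325 of 3470 and 3419 of 6145 genes with at least 100 UMIs, counted from the highest ratio, with log2 ratios of -0.11 and 0.03. By summed UMIs it was lower in Combo in T-like, monocyte-like and NK-like cells, with log2 ratios of -0.47, -0.63 and -1.55. With the cells that Scrublet scored as doublets kept, these turned to 0.09 in T-like, 0.04 in monocyte-like and 0.39 in DC-like cells, and the macrophage-like ratio was -0.22 without the 5 cells with the most UMIs. With the minimum of marker UMIs doubled, the T-like ratio was -1.56. Sums weight cells by depth. The mean CPM of single cells was 1455 in Olaparib + LLY-283 and 1426 in Combo for T-like cells. It was 259 and 138 for monocyte-like cells and 4904 and 3430 for NK-like cells. In NK-like cells median-of-ratios size factors shift all genes by -0.80, and the ratio relative to them was -0.75. For reference, the share of genes at least 2-fold higher and at least 2-fold lower in Combo was 1.15% and 0.548% in DC-like, 0.391% and 0.618% in macrophage-like, 3.77% and 1.77% in monocyte-like, 3.12% and 0.742% in T-like, 14.1% and 5.82% in NK-like and 6.97% and 4.38% in neutrophil-like cells.

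Interferon-response genes with at least 100 UMIs in tumor-like cells were less different between the libraries than AW112010. Of the 18 interferon-gamma GTPases, 14 had at least 100 UMIs in tumor-like cells, 2 of them were at least 2-fold higher in Combo, and their median log2 ratio was 0.61. Of all 13222 genes with at least 100 UMIs, 1.03% were at least 2-fold higher and 0.461% at least 2-fold lower, with a median of 0.05. The 2 GTPases were Gbp5, with 5.36 and 16.8 CPM and a ratio of 3.13 [2.83–3.48], and Gbp8, with 0.889 and 2.28 CPM and a ratio of 2.56 [1.98–3.34]. Gbp2 went from 134 to 233 CPM, a ratio of 1.74 [1.70–1.78]. None of the other lists had a member at least 2-fold higher or lower among those with 100 UMIs. The medians were 0.16 for 37 type I interferon genes, 0.18 for 23 genes of MHC class I and its peptide loading, and 0.66 for 8 genes of MHC class II. For the receptors and kinases that carry the interferon signal the median of 12 genes was 0.04, for 7 other interferon-gamma genes 0.40, and for mitosis, S phase and glycolysis genes 0.04, 0.14 and 0.10. Irf1, a transcription factor induced early by interferon-gamma, went from 37.4 to 72.0 CPM. Of listed genes with fewer than 100 UMIs, Ido1 had 2 and 63 UMIs, a ratio of 26.4 [7.02–223]. Tgtp2 had a ratio of 2.24 [1.42–3.62], Ubd 2.08 [1.26–3.54] and Serpina3g 0.994 [0.631–1.57]. Gbp2b, on none of the lists, went from 83.1 to 172 CPM, a log2 ratio of 1.05. Ifng itself had 0 and 4 UMIs in tumor-like cells. Il12b had 0 UMIs in both libraries, and Il10 had 5 and 10.

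**Figure D2:**
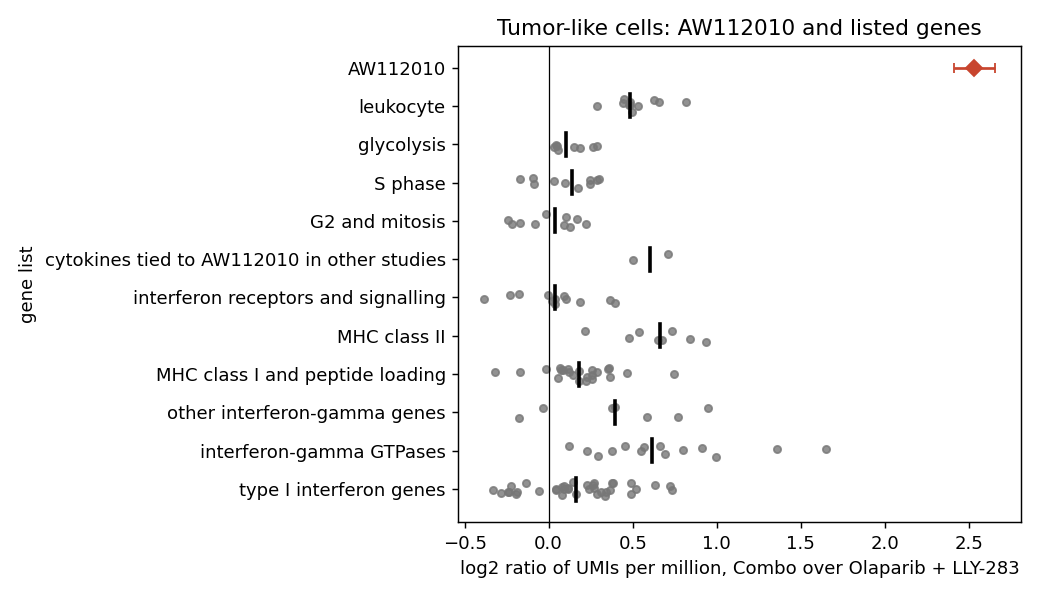
Log2 ratio of CPM in tumor-like cells, Combo over Olaparib + LLY-283 (horizontal axis), for AW112010 with its 95% counting interval and for each gene with at least 100 UMIs of 11 gene lists. Grey points are genes and black bars list medians. AW112010 lies at 2.53 and the highest listed gene, Gbp5, at 1.65.

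RNA of leukocytes was also somewhat higher in tumor-like cells of Combo. The summed level of 13 leukocyte genes was 277 CPM in Olaparib + LLY-283 and 401 CPM in Combo, with 0 of 11 genes at least 2-fold higher, against 27129 and 29864 CPM in macrophage-like cells. T cell markers in tumor-like cells stood at 0.213% and 0.254% of their level in T-like cells, with 1 and 2 of 14 markers at 0, and NK markers at 0.0382% and 0.0891% of their level in NK-like cells, with 4 and 2 of 8 at 0. At those percentages, the AW112010 level of T-like cells comes to 1.81 and 1.55 CPM and that of NK-like cells to 1.81 and 1.44 CPM. The same product was 0.940 and 1.54 CPM for DC-like cells, 0.610 and 0.713 for macrophage-like cells, 0.842 and 0.808 for monocyte-like cells, and 0.0329 and 0.0406 for neutrophil-like cells. Summed over the 6 classes the products come to 6.04 CPM in Olaparib + LLY-283, where tumor-like cells held 7.06, and to 6.09 CPM in Combo, where they held 40.8. Each product counts every marker UMI in tumor-like cells as RNA of that class. Of the DC markers, at 44.1 and 69.3 CPM in tumor-like cells, the class II gene Cd74 alone held 31.6 and 50.5 CPM. Whether tumor-like cells made it themselves was not tested. The part of leukocyte RNA in the AW112010 levels was not tested either. The gate that defines tumor-like cells removes cells with many leukocyte UMIs, so these percentages describe the cells after the gate.

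Within tumor-like cells, AW112010 went with the interferon-gamma GTPases in both libraries. Cells were thinned to 5000 UMIs, which left 6708 cells of Olaparib + LLY-283 and 2033 of Combo, and sorted by their summed GTPase UMIs. In Olaparib + LLY-283 the share of cells with AW112010 was 1.25% [0.824–1.81] at 0 GTPase UMIs, 2.61% at 1, 3.80% at 2 to 3, 7.53% at 4 to 7 and 11.8% [7.78–16.9] at 8 or more. In Combo it was 3.86% [2.27–6.11], 8.17%, 12.1%, 23.5% and 32.9% [25.6–40.9]. The share was higher at each step, though some neighboring intervals overlapped, and at each step Combo was higher than Olaparib + LLY-283, with intervals that did not overlap. Combo also held more cells at high GTPase levels, with 7.62% of cells at 8 or more against 3.16%. Sorted by type I interferon UMIs, the lowest and the highest tertile of cells with such a UMI had shares of 1.74% and 5.75% in Olaparib + LLY-283 and of 7.42% and 19.02% in Combo. Sorted by leukocyte UMIs the shares showed no such climb: cells with 0 leukocyte UMIs had 3.52% in Olaparib + LLY-283 and 14.2% in Combo, and those with 3 or more had 2.98% and 13.9%. Of the 277 CPM of that list in Olaparib + LLY-283, the neutrophil genes S100a8 and S100a9 held 61.1 and 93.6, and of the 401 CPM in Combo 86.2 and 135. The lymphocyte genes Cd3e (0.281 and 0.246 CPM) and Nkg7 (0.113 and 0.217 CPM) hardly enter, so this sort cannot show lymphocyte RNA.

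**Figure D3:**
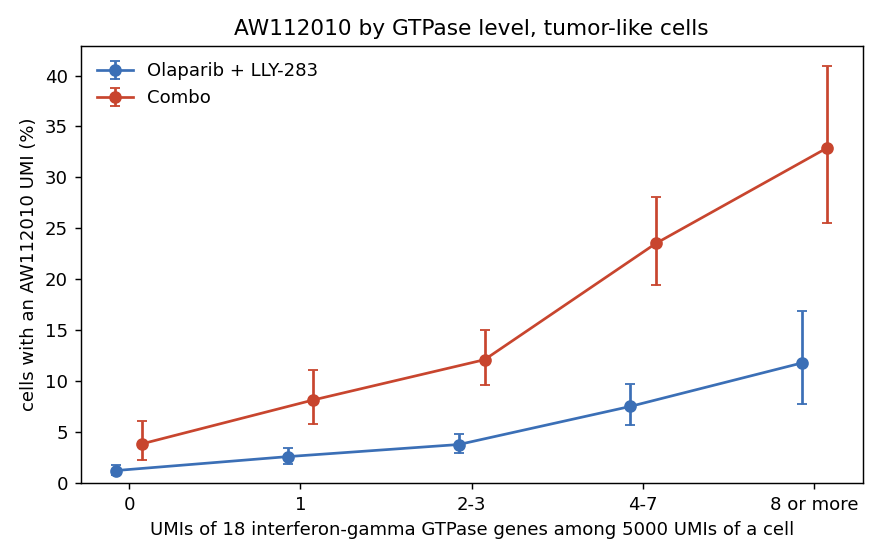
Share of tumor-like cells with an AW112010 UMI (vertical axis, percent) by the UMIs of 18 interferon-gamma GTPase genes among 5000 UMIs of the cell (horizontal axis), with 95% Clopper-Pearson intervals. The share climbs from 1.25% to 11.8% in Olaparib + LLY-283 and from 3.86% to 32.9% in Combo.

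The same was seen when cells with and without AW112010 were compared at 5000 UMIs. The 222 cells with AW112010 in Olaparib + LLY-283 held 3.79 GTPase UMIs per cell against 1.76 in 6486 cells without it, a ratio of 2.15 [2.00–2.31]. In Combo, 269 cells with it held 5.11 against 2.64 in 1764 without, a ratio of 1.94 [1.82–2.06]. All 13 and all 12 GTPases with at least 50 UMIs were higher in the cells with AW112010, against 53.9% and 47.8% of all genes with at least 50 UMIs. For the type I interferon genes the ratios were 1.32 [1.28–1.36] and 1.35 [1.31–1.39], and for MHC class I 1.14 in both libraries. MHC class II RNA, which is low in tumor cells, was 3.06 times higher [2.63–3.55] in Olaparib + LLY-283 and 1.60 times higher [1.36–1.87] in Combo, and leukocyte RNA 0.930 [0.825–1.05] and 1.12 times [1.02–1.22] that of cells without. Of leukocyte genes with at least 50 UMIs, 5 of 11 and 7 of 9 were higher, against the same 53.9% and 47.8% of all genes. The leukocyte members differed: in Olaparib + LLY-283 Fcer1g stood at 1.59 [1.01–2.40] and C1qa at 1.38 [0.793–2.23], and Cd52 at 0.815 [0.296–1.80]. The mitosis genes stood at 0.952 [0.899–1.01] and 0.853 [0.804–0.904], and the S phase genes at 1.16 [1.10–1.23] and 0.859 [0.807–0.913], so the S phase genes pointed in opposite directions in the 2 libraries. Total UMIs of the cells before thinning were alike, with medians of 10001.5 and 10563 in Olaparib + LLY-283 and 50524 and 49308 in Combo for cells with and without it. Il24, which had the larger ratio between the libraries, had ratios of 0.894 [0.181–2.69] and 1.20 [0.831–1.70], so a difference was not detectable at this depth. At 20000 UMIs in Combo its ratio was 1.53 [1.35–1.74].

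**Figure D4:**
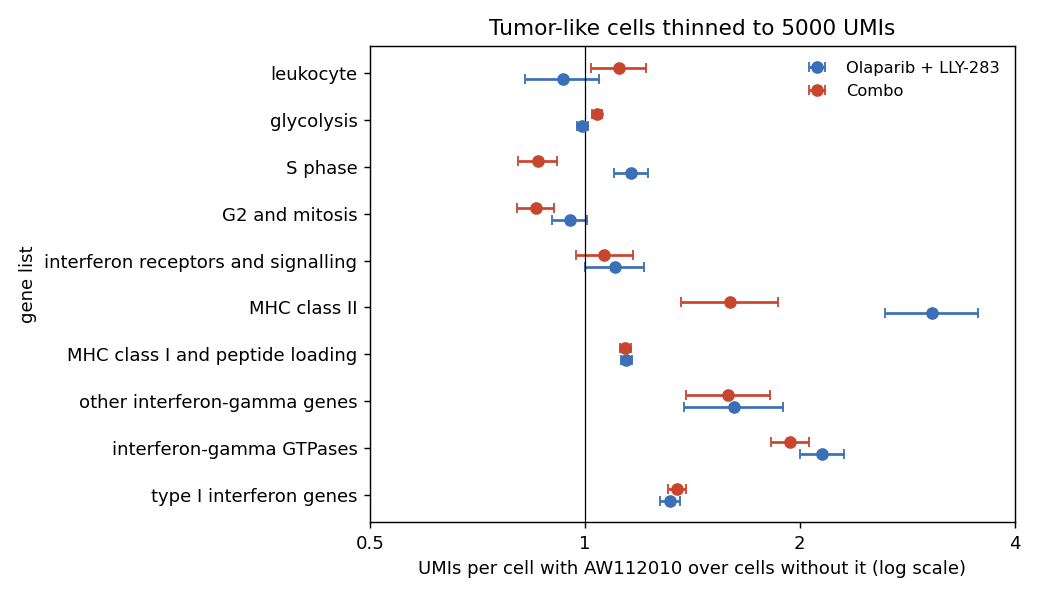
Summed UMIs per cell of 10 gene lists in tumor-like cells with an AW112010 UMI over cells without it (horizontal axis, log scale) after thinning to 5000 UMIs, with 95% counting intervals. The GTPases are at 2.15 and 1.94, MHC class I at 1.14 in both libraries, and S phase genes on opposite sides of 1.

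Gene by gene, correlations were weak, as sparse counts allow, and are given as Pearson r of log(1 + UMIs) over cells that share a library, a depth and its free RNA. Over 7302 genes seen in at least 5% of thinned cells of each library, r with AW112010 ran from -0.0689 to 0.117 in Olaparib + LLY-283, with 6708 cells, and from -0.202 to 0.261 in Combo, with 2033 cells. The highest mean over both libraries belonged to Gbp2b (r of 0.0960 and 0.255) and Gbp2 (0.0897 and 0.249). They were followed by C130026I21Rik (0.0632 and 0.243), the secreted protease inhibitor Slpi (0.0396 and 0.261), the membrane protein Itm2b (0.0445 and 0.223) and Igfbp4 (0.0652 and 0.191), which binds insulin-like growth factors. The immunoproteasome subunits Psmb10 (0.0861 and 0.162) and Psmb8 (0.0657 and 0.172), the calcium-binding S100a6 (0.0447 and 0.1997) and the surface protein Ly6a (0.0798 and 0.164) made up the first 10. The lowest were the smooth muscle actin Acta2 (-0.0283 and -0.202), the ribosomal protein Rps2 (-0.0689 and -0.107), Basp1 (-0.0111 and -0.161), Lgals7 (-0.0257 and -0.139) and the actin-severing Dstn (-0.0221 and -0.139). At 20000 UMIs per cell, which was run in Combo alone (1866 cells), r was 0.414 for Gbp2b, 0.403 for Gbp2, 0.437 for C130026I21Rik and -0.349 for Acta2. Gbp genes resemble each other in sequence, and C130026I21Rik has close copies, so UMIs may be split among relatives.

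The GTPase list, which does not hold Gbp2b, had median r of 0.0639 and 0.0875 in Olaparib + LLY-283 and Combo, with 8 of 8 genes that passed above 0, against 0.000312 and -0.00431 over all 7302 genes. Of those 7302 genes, 3735 in Olaparib + LLY-283 and 3037 in Combo were above 0, the reference for each such count below. Behind Gbp2 stood Gbp7 (0.0707 and 0.129) and Gbp3 (0.0604 and 0.135), and Iigp1 had 0.0673 and 0.0852. Type I interferon genes had medians of 0.0225 and 0.0543, with 24 of 25 above 0 in each library, led by Ifitm3 (0.0611 and 0.153), which blocks virus entry, the ubiquitin-like Isg15 (0.0525 and 0.110) and Trim30a (0.0194 and 0.143), while Ifit1 had 0.0216 and 0.0582. MHC class I and peptide loading had medians of 0.0227 and 0.0356, with 21 and 20 of 22 above 0. Within it the peptide-processing genes stood first, with Psme1, a proteasome activator, at 0.0549 and 0.175 behind Psmb10 and Psmb8. Of the class I heavy chains, H2-K1 had 0.0596 and 0.0859 and H2-D1 0.0430 and 0.0624. B2m, the shared light chain, had 0.0215 and -0.0183. Cd74, the class II invariant chain, was the 1 class II gene that passed, with 0.117 and 0.0919. Irf1 had 0.0222 and 0.0852. H2-Aa (0.0543 and 0.0184), Cd274, which encodes PD-L1 (0.0165 and 0.00185), and Ciita, the class II regulator (-0.00281 and -0.00948), were seen in too few cells to pass the filter. The receptors Ifngr1 (0.00956 and 0.0111) and Ifnar1 (0.000707 and -0.00408) and the class I regulator Nlrc5 (0.0193 and 0.0214) had values closer to 0. The receptor and kinase list had medians of 0.00868 and 0.00562, led by Socs3 (0.00845 and 0.0704), a feedback inhibitor of cytokine signals, Stat2 (0.0157 and 0.0531) and Ifnar2 (0.0188 and 0.0224). The S phase list had medians of 0.00151 and -0.0231 and the glycolysis list -0.00119 and 0.0315, and of the cytokines linked to AW112010 only Il1b passed, with -0.00589 and 0.0337. The leukocyte list had medians of -0.000607 and 0.00278, and the mitosis list -0.00455 and -0.0192. In Combo the mitosis median was 0.0204 in the 374 cells without a leukocyte marker UMI and the S phase median 0.0427 in the 276 cells of 10000 to 30000 UMIs, so neither kept its sign.

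**Figure D5:**
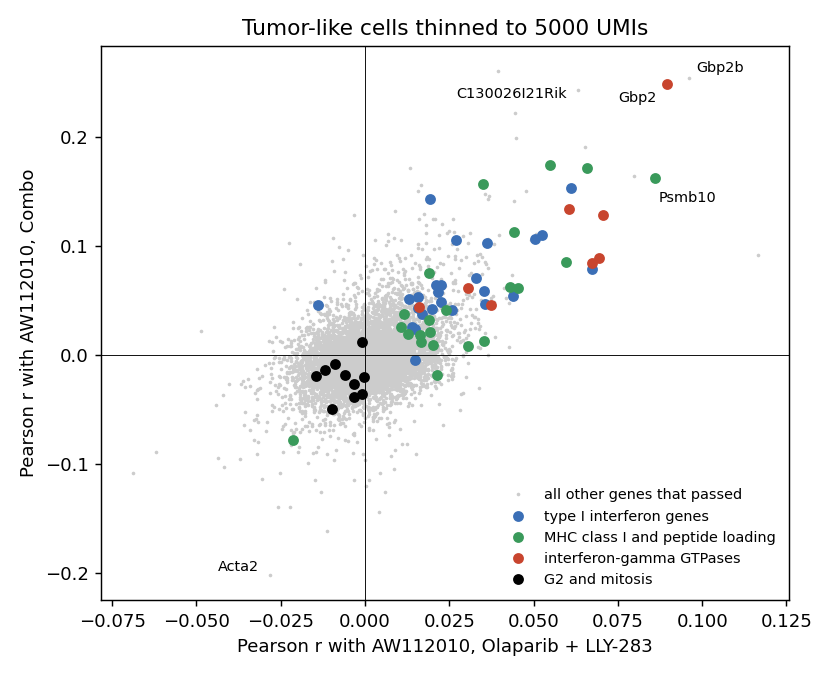
Pearson r of AW112010 with each of 7302 genes over tumor-like cells thinned to 5000 UMIs, in Olaparib + LLY-283 (horizontal axis) and Combo (vertical axis), with 4 gene lists in color. Gbp2 and Gbp2b lie at the upper right, Acta2 at the lower left, and mitosis genes near 0.

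AW112010 was unevenly spread over tumor-like cells. At 5000 UMIs the variance was 1.21 times the mean in Olaparib + LLY-283 and 2.06 times in Combo. At 20000 UMIs in Combo it was 5.01 times the mean, 65.1% of cells had no UMI where a Poisson spread of the same mean leaves 41.1%, and 10% of cells held 64.5% of the UMIs. The same measure was 5.61 for Gbp2 and 5.56 for Krt8 in these cells, so an uneven spread was not particular to AW112010. The 5 cells with the most UMIs gave 5.97% of all AW112010 UMIs of tumor-like cells in Combo and 3.99% in Olaparib + LLY-283.

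Taken as summed UMIs, AW112010 was higher in the few cells that held Cxcl9, a chemokine made after interferon-gamma that draws T cells. This was so in DC-like and macrophage-like cells of both libraries and in monocyte-like cells of Combo. Macrophage-like and monocyte-like cells with the class II gene H2-Aa also held more of it. Most DC-like cells held H2-Aa, 173 of 197 and 119 of 128. These genes were picked after the class levels had been seen. In Combo the 9 macrophage-like cells with a Cxcl9 UMI held 242 of the 670 AW112010 UMIs of the class, 2236 CPM [1963–2536] against 111 CPM [100.3–122] in the other 284. In Olaparib + LLY-283 the 7 such cells had 1457 CPM [1009–2036] against 144 [125–165]. Median depths of the cells with and without Cxcl9 were 11662 and 12956 UMIs in Combo. The T and NK markers together summed to 1 UMI in the 9 cells and 0 in the 7. Macrophage-like cells with an H2-Aa UMI held 672 CPM in Olaparib + LLY-283 and 470 CPM in Combo, against 114 and 91.9 CPM in those without. In monocyte-like cells of Combo, 7 cells with Cxcl9 held 164 of 332 UMIs, 1773 CPM [1512–2067] against 72.5 [61.9–84.3], while 0 of 94 monocyte-like cells of Olaparib + LLY-283 held it. In Combo 1 monocyte-like cell held 115 UMIs, and the thinned shares with and without Cxcl9 were 46.2% [9.90–81.6] and 5.32% [2.80–9.17]. DC-like cells with Cxcl9 had 925 and 589 CPM against 196 and 194, and those with Ccr7, a marker of mature migrating dendritic cells, 740 and 770 against 283 and 265 (Ccr7 and H2-Aa are also markers of the DC-like class). Macrophage-like cells with Arg1, an enzyme of alternatively activated macrophages, had 142 and 126 CPM against 195 and 277 in those without. For monocyte-like cells these values were 93.9 and 140 CPM against 417 and 125. With Cxcl10, from the list of other interferon-gamma genes, macrophage-like cells had 388 and 160 CPM against 154 and 170. Monocyte-like cells with Cxcl10 had 263 and 709 CPM against 208 and 52.0. Macrophage-like cells with Il12b numbered 0 in both libraries, so the 2 genes could not be compared there. Of DC-like cells, 3 with Il12b in Olaparib + LLY-283 had 2713 CPM [1445–4640] against 292, and 4 in Combo had 214 [86.1–441] against 295.

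Without the 5 cells that held the most, the level was 117 and 101 CPM in macrophage-like, 93.9 and 46.4 CPM in monocyte-like, 220 and 171 CPM in DC-like, 497 and 316 CPM in T-like and 2681 and 1124 CPM in NK-like cells, and in neutrophil-like cells of Olaparib + LLY-283 6.17 CPM. In T-like cells of Combo, the 10 with a Cd8a UMI held 2168 CPM [1796–2595] against 299 [238–371] in the other 21, while in Olaparib + LLY-283 14 such cells held 776 CPM [481–1187] against 874 [678–1107]. With the minimum of marker UMIs doubled, T-like cells of Olaparib + LLY-283 held 1798 CPM.

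Over 22 points, 11 classes in each of 2 libraries, the gene whose log2(CPM + 1) went most closely with that of AW112010 was Ifngr1, the interferon-gamma receptor chain that binds the cytokine, with Pearson r of 0.93 among 14549 genes. Its own level went from 754 and 337 CPM in NK-like cells to 23.01 and 29.7 CPM in tumor-like cells. The next were Gpr171 (0.88), Ramp1 (0.87), the NK receptor Klrk1 (0.86), Rasal3 (0.86), the IL-12 signal transducer Stat4 (0.85), the shared cytokine receptor chain Il2rg (0.85), Ms4a4b (0.84), Magohb (0.84) and Stk4 (0.83). Points of the same library share its free RNA, and the smallest classes rest on few cells.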

How the data were processed

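Both count matrices were deposited by the authors as UMI counts per gene and cell with no normalization. The matrix headers name Cell Ranger 6.1.2, the study's methods a later version, and the submitters' processing notes mm10, bcl2fastq 5.0.1 and Seurat 4.1.0. Cells were required to have 200 genes and mitochondrial UMIs below 20%. Scrublet (scanpy 1.11.5) called 0 doublets at its automatic threshold in either library, so the highest-scoring 0.8% per 1000 cells were left out (2055 and 284 cells). A cell took a class when its marker UMIs were at least 8 times the mean rate of both libraries, with at least 3 UMIs of at least 2 markers. Cells with markers of several lineages were set aside as mixed (62 and 65). Tumor-like cells passed no such list and had keratin marker UMIs at 0.5 times the mean rate or more, and at least 2. Mast-like (10 cells) and erythroid-like (4), found in Olaparib + LLY-283 alone, had 0 AW112010 UMIs and are not described further.

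Levels are UMI sums as CPM with exact Poisson intervals. Shares are the expected share after thinning to 1000 UMIs, over cells with at least that many, with Clopper-Pearson intervals. Ratios have exact conditional binomial intervals. Correlations are means over 5 draws at 5000 UMIs. Promoter sequences matched 12 of 14 genes looked up. AW112010, the gene lists and the markers were chosen with earlier results of these data known. Named in the text are the 10 genes with the highest and 5 with the lowest mean r, up to 3 highest of each interferon and MHC list, 16 genes fixed by name (1 is not reported here), and the 10 genes most like AW112010 over classes. Il24, Etv1, Hgf, Gbp5, Gbp8, Ido1, Tgtp2, Ubd, Serpina3g, Cxcl9, Cxcl10, Ccr7, Cd8a and Arg1 were chosen after their values were seen. The scripts were tested on simulated data. Scripts ran in Python 3.11.15 with matplotlib 3.10.9, pandas 2.3.3, scipy 1.17.1 and numpy 2.4.6. Alternatives changed the filters, doublets, marker minimum, depth, denominator, size factors and correlation measure.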

Additional observations from a re-analysis of the deposited data

Results flagged for a closer look

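The log2 ratio of AW112010, Combo over Olaparib + LLY-283, was 2.53 in tumor-like cells and -1.55 in NK-like cells, opposite directions with 1 library a group, and the difference between the classes was not tested. In NK-like cells the mean CPM of single cells was 4904 in Olaparib + LLY-283 and 3430 in Combo. In tumor-like cells it was 8.91 and 42.3. Cells with at least 20% mitochondrial UMIs, which entered no comparison, held 46 AW112010 UMIs in Combo, or 33.0 CPM, and 1 in Olaparib + LLY-283.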

How the results depend on the processing

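No paired analysis was possible because each group has 1 library. Of 15 results on tumor-like cells, the log2 ratio stayed between 2.38 and 2.58 under every alternative tried. It was 2.39 with doublets kept and 2.38 in cells of 10000 to 30000 UMIs, an alternative chosen after seeing the data, as were leaving out barcodes found in both libraries and thinning Combo to 20000 UMIs. In that depth range the Combo values were 34.1 CPM and a thinned share of 2.93%. CPM in Olaparib + LLY-283 was 7.71 with doublets kept, and 9.30 there and 53.2 in Combo without mitochondrial and ribosomal protein genes in the denominator. Without the 5 cells with the most UMIs Combo held 38.5 CPM. Thinned shares scale with depth, to 0.398% and 1.957% at 500 UMIs, 1.41% and 6.64% at 2000, and 6.32% and 46.6% with all UMIs.

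The median r of the GTPases in Olaparib + LLY-283 was 0.0374 with genes in at least 1% of cells and 0.0220 at 2000 UMIs. In Combo it was 0.219 with all UMIs and 0.189 at 20000 UMIs, but 0.0589 at 2000 UMIs and 0.0452, with 6 of 8 genes above 0, in cells of 10000 to 30000 UMIs, where the other library had 0.0447. In those Combo cells 3490 of all 7302 genes were above 0. With all UMIs the Combo medians were 0.108 for type I interferon and 0.113 for MHC class I genes, and the latter was 0.0905 at 20000 UMIs. Shares in the lowest and highest tertile of type I interferon UMIs were 1.09% and 2.28% in Olaparib + LLY-283 and 4.81% and 11.2% in Combo at 2000 UMIs. Sorted by GTPases instead, at 5000 UMIs, ties made the bins unequal, and cells with 0 GTPase UMIs are left out. In Olaparib + LLY-283 the shares were 2.61% at 1 UMI (1839 cells) and 8.49% at 4 or more (942 cells). In Combo they were 8.82% at 1 to 2 UMIs (805 cells) and 28.4% at 5 or more (388 cells). The cause was not tested. A value was taken as moved when it left the counting interval of the reported one or, for r, an interval set by the number of cells. With doublets kept the ratios of T-like (0.0916), monocyte-like (0.0411) and DC-like cells (0.39) turned positive, and that of macrophage-like cells turned to -0.22 without the 5 cells with the most UMIs; the intervals of the last 2 classes already held 0. Precision is limited by the number of cells in NK-like and T-like classes and by 1 library a group.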
